A study of Mus musculus with 4 samples.

Results

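The HoxB cluster genes are Hoxb1 to Hoxb9 and Hoxb13 on mouse chromosome 11. They were taken by symbol from the deposited count tables, and all 10 were found among 24453 gene symbols. The RNA-seq libraries were made from newborn (postnatal day 0) epidermis, with cells sorted from digested back skin as EpCAM positive, Sca1 positive and high for α6-integrin, a gate for progenitors of the epidermis between hair follicles. The 2 I53A libraries came from Ring1a-/- Ring1b-/I53A mice, which lack Ring1 and carry a null allele of Ring1b over the I53A allele, whose protein is catalytically inactive. The 2 CTL libraries came from mice whose genotype is given only as control. No label names a Cre driver, and no label says that the replicates were separate animals, so p-values measure the spread between these libraries. The series sets the mutant against the control to ask what the catalytic activity of Polycomb repressive complex 1 (PRC1) does in skin epithelium. The inactive allele cannot be told apart from the loss of Ring1 or from the null Ring1b allele in this comparison.

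Hox genes encode homeodomain transcription factors that give cells along the body axis their regional identity. In a cluster they lie in order, from genes of the 3′ end that are used early and toward the head to genes of the 5′ end that are used late and toward the tail. Where a Hox gene is off, PRC1 ubiquitinates histone H2A and PRC2 methylates histone H3 over it, and Hox clusters are the classical targets of both complexes. In skin, dermal and epidermal cells are known to keep a regional Hox pattern.

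In I53A epidermis none of the 8 tested HoxB genes passed the main test against CTL epidermis, which 6.71% of all tested genes passed. Hoxb3 passed as lower in some alternative settings, among them offsets for GC content and transcript length. Hoxb13, the gene of the 5′ end, had 0 reads in every library. Hoxb2, Hoxb3 and Hoxb4 had lower values in both I53A libraries than in both CTL libraries, at 0.734, 0.630 and 0.658 of the CTL level. Such a separation held for 23.5% of all tested genes, and for Hoxb2 the gap was smaller than the spread within CTL. Hoxb5 to Hoxb9 lay between 0.933 and 1.17 of the CTL level, with libraries that overlapped. For each of the 8 tested genes the upper 95% limit of the fold change was below a doubling, as it was for 70.9% of all tested genes. Without CTL replicate 1 this did not hold for all of the 8. Hoxb1, near silence in CTL epidermis, had more reads in I53A epidermis, most of them in 1 library.

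Promoter windows of 3 of the 10 genes are held in the RefSeq table of GRCm38.p6. They are shown because no other HoxB gene had a window there. In these data Hoxb1 was near silence, Hoxb4 was lower in both I53A libraries, and Hoxb8 had values that overlapped between the groups. Each is the 250 bases before the RefSeq start on the plus strand, which for Hoxb1 lies a few bases inside the GENCODE gene extent given with its values, at chr11:96365508-96365757 for Hoxb1, chr11:96318017-96318266 for Hoxb4 and chr11:96281655-96281904 for Hoxb8. Capitals mark matches on either strand to TGATNNAT, a form of site that HOX proteins bind with partner proteins, to CCAAT and to TATAAA.
Hoxb1: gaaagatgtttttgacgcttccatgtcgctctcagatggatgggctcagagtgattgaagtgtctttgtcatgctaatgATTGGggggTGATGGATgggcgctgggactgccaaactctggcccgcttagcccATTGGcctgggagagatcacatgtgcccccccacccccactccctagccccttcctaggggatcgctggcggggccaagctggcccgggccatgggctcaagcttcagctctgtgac
Hoxb4: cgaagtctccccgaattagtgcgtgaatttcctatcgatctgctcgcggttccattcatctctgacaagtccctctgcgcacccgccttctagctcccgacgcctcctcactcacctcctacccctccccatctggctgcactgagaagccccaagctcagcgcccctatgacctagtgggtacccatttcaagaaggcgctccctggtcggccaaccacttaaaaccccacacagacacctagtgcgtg
Hoxb8: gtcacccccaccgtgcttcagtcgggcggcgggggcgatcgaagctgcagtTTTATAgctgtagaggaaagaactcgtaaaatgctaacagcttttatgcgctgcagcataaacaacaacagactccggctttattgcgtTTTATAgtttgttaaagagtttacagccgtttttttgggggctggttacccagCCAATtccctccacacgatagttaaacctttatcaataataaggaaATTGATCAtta
Hoxb1 held 1 TGATNNAT match and 2 CCAAT matches, Hoxb8 held 1 of each and 2 TATAAA matches, and Hoxb4 held none of these letters in this window. No match overlapped another. Of 32851 promoter windows of this length, 7.68% held TGATNNAT, 33.8% held CCAAT and 12.4% held TATAAA. The windows of Hoxb1, Hoxb4 and Hoxb8 held 7, 14 and 12 CG dinucleotides, against a median of 6 over all windows. Of all windows, 53.7%, 70.6% and 66.5% held fewer than these. These matches describe the sequence and were not tied to the levels.

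The targeted gene Ring1 checks the labels. It had 2.54 and 2.91 CPM (read counts scaled to library size) in I53A replicates 1 and 2, against 24.2 and 33.3 CPM in CTL replicates 1 and 2 (log2 fold change -3.38 ± 0.31 SE, edgeR quasi-likelihood adjusted p = 0.00017). Total counts ran from 15505018 to 21543385 per library. Keratinocyte markers summed to 16960 and 20100 CPM in I53A libraries and to 24400 and 28370 CPM in CTL libraries, with Krt5, a keratin of the basal layer, the highest of them, and all 7 were detected. Of these 7 edgeR called 0, with 3 at an unadjusted p under 0.05, while Krt5 and Krt14 were called lower by DESeq2 and limma-voom and Epcam was called higher by DESeq2. By Xist and Ddx3y reads, I53A replicate 1 was male and the other 3 libraries were female. Over all genes 6.71% were called in the comparison (adjusted p under 0.05, 977 of 14550), 5.68% higher and 1.04% lower in I53A. The number called was 297 without CTL replicate 1, 326 without CTL replicate 2, 1489 without I53A replicate 1 and 1520 without I53A replicate 2. Of the calls 84.5% were higher in I53A, against 47.8% when GC content and transcript length were offset.

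HoxB genes drew 2155 and 2599 reads in I53A replicates 1 and 2, and 2743 and 2015 reads in CTL replicates 1 and 2. That was 0.0135% and 0.0121% of the I53A libraries and 0.0161% and 0.0130% of the CTL libraries. Per kilobase of exon, Hoxb6 stood first in I53A epidermis, at 9.82 and 8.19 CPM per kb in replicates 1 and 2. Hoxb7, Hoxb3, Hoxb8 and Hoxb5 followed at 7.40 to 7.99 CPM per kb with ranges that overlapped, and those of Hoxb3, Hoxb8 and Hoxb5 also overlapped the range of Hoxb6. Hoxb9 and Hoxb4, which overlapped, had 3.59 and 3.37 CPM per kb, and Hoxb2 had 1.07 CPM per kb. In CTL epidermis the levels ran from Hoxb3 at 12.2 ± 1.17 CPM per kb (SD, n = 2) through Hoxb7, Hoxb5, Hoxb6 and Hoxb8 at 7.60 to 8.29 CPM per kb, down to Hoxb4 at 5.11, Hoxb9 at 3.02 and Hoxb2 at 1.44 CPM per kb. Each of Hoxb7, Hoxb5 and Hoxb6 overlapped the next in this order, and the other neighbours did not overlap. Of the tested genes Hoxb3 thus had the third highest mean length-scaled level in I53A epidermis and the highest in CTL epidermis.

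**Figure D1:**
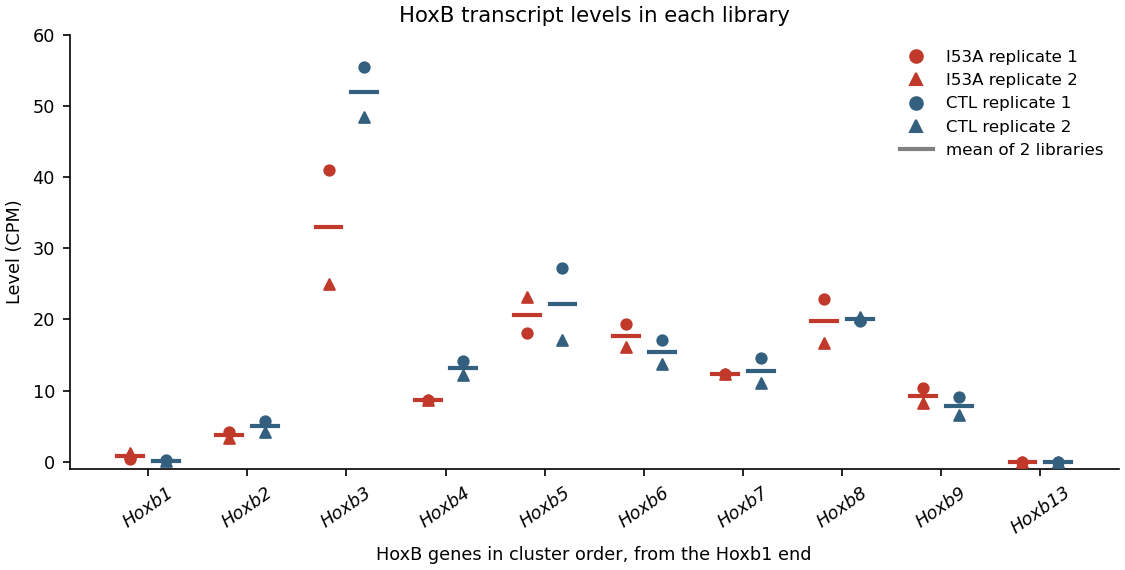
Levels of the HoxB genes in CPM (vertical axis) in cluster order from the Hoxb1 end (horizontal axis), with a point for each library and a bar for the mean of 2 libraries, I53A left of CTL. Both I53A libraries lie below both CTL libraries for Hoxb2, Hoxb3 and Hoxb4, the groups overlap from Hoxb5 to Hoxb9, and Hoxb13 is at 0 throughout.

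At the 3′ end, Hoxb1 (chromosome 11, 96365752 to 96368256, plus strand of GRCm38, which is mm10) is known for setting the identity of a hindbrain segment, where it maintains its own expression. It had 6 and 27 reads in I53A replicates 1 and 2, and 4 and 1 reads in CTL replicates 1 and 2. The levels were 0.382 and 1.19 CPM in the I53A libraries and 0.238 and 0.0663 CPM in the CTL libraries. The groups did not overlap, but 27 of the 33 I53A reads were in replicate 2. The gene was below the low-count filter and was not tested in the main comparison. The ratio of pooled reads, scaled for library size, was 5.48 (95% exact binomial interval 2.13 to 18.0, counting error only). It was 2.44 (0.619 to 10.1) without I53A replicate 2, 7.59 (2.88 to 25.2) without I53A replicate 1, 12.97 (2.17 to 528) without CTL replicate 1 and 3.61 (1.28 to 14.0) without CTL replicate 2. Fitted with no low-count filter it had a log2 fold change of 2.39 ± 1.17 (SE) and did not pass (edgeR adjusted p = 0.351).

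Hoxb2 (96350525 to 96354012) is a hindbrain gene that the factor Krox20, the product of Egr2, is known to activate. Its levels were 4.14 and 3.35 CPM in I53A replicates 1 and 2, against 5.77 and 4.24 CPM in CTL replicates 1 and 2. Both I53A libraries were below both CTL libraries by a gap smaller than the spread within CTL. The log2 fold change was -0.45 ± 0.39 (SE; 95% interval -1.32 to 0.43; edgeR adjusted p = 0.637).

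Hoxb3 (96323326 to 96347930), which acts in the hindbrain and pharyngeal region, gave the most HoxB reads in each library. Its levels were 41.0 and 25.0 CPM in I53A replicates 1 and 2, from 645 and 568 reads, against 55.5 and 48.4 CPM in CTL replicates 1 and 2, from 932 and 731 reads. The groups did not overlap, and the I53A libraries differed from each other by more than the groups' nearest values did. The means were 33.0 ± 11.3 CPM in I53A and 52.0 ± 4.98 CPM in CTL (SD, n = 2 each). The log2 fold change was -0.67 ± 0.23 (SE; 95% interval -1.18 to -0.15), with an unadjusted p of 0.0166 and an adjusted p of 0.138 (edgeR quasi-likelihood test), so Hoxb3 did not pass. Without I53A replicate 1, the male library, the log2 fold change was -1.05. That fit rests on the lower of the 2 I53A libraries and takes its spread from the CTL libraries alone. The other 3 libraries left out in turn gave log2 fold changes from -0.75 to -0.34. With all 4 libraries, Hoxb3 passed with GC content and length offsets (log2 fold change -0.88, or -0.74 relative to the median of all genes, which the offsets moved to -0.14; adjusted p = 0.0377). Annotated exons of the antisense gene Hoxb3os, which has no row of its own in the table, cover 52.9% of the Hoxb3 exon bases and 27.3% of those of Hoxb2. The strand setting of the counts is not given in the sources used here, so reads of Hoxb3os cannot be told apart from theirs.

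Hoxb4 (96318267 to 96321638), known for expanding blood stem cells, had 8.65 and 8.64 CPM in I53A replicates 1 and 2, against 14.1 and 12.1 CPM in CTL replicates 1 and 2. The I53A libraries were almost equal and both were below the CTL libraries. The log2 fold change was -0.60 ± 0.27 (SE; 95% interval -1.20 to -0.01; edgeR unadjusted p = 0.0475 and adjusted p = 0.261), and it did not pass. Leaving out each library in turn gave log2 fold changes from -0.71 to -0.49 and adjusted p from 0.278 to 0.747.

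In the middle of the cluster, Hoxb5 (96303336 to 96306121), a gene of gut innervation and lung development, had 18.1 and 23.1 CPM in I53A replicates 1 and 2, and 27.2 and 17.1 CPM in CTL replicates 1 and 2. The I53A libraries lay inside the range of the CTL libraries. The log2 fold change was -0.10 ± 0.26 (SE; 95% interval -0.68 to 0.48; edgeR adjusted p = 0.903). Hoxb6 (96292476 to 96301569), expressed in lateral mesoderm and known as a marker of it, had 19.3 and 16.1 CPM in I53A replicates 1 and 2, and 17.1 and 13.7 CPM in CTL replicates 1 and 2. The groups overlapped, with a log2 fold change of 0.19 ± 0.24 (SE; 95% interval -0.35 to 0.72; edgeR adjusted p = 0.771).

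Hoxb7 (96286623 to 96290162), whose promoter is widely used to mark the ureteric bud, had 12.3 CPM in each I53A library, and 14.5 and 11.1 CPM in CTL replicates 1 and 2. The I53A value lay between the CTL values (log2 fold change -0.06 ± 0.26 SE; 95% interval -0.64 to 0.53; edgeR adjusted p = 0.947). Hoxb8 (96281905 to 96285315), a regulator of myeloid progenitors whose loss in mice causes excessive grooming, had 22.8 and 16.6 CPM in I53A replicates 1 and 2, and 19.8 and 20.3 CPM in CTL replicates 1 and 2. The CTL libraries lay inside the I53A range (log2 fold change -0.03 ± 0.23 SE; 95% interval -0.55 to 0.49; edgeR adjusted p = 0.969).

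Toward the 5′ end, Hoxb9 (96271457 to 96276595), which patterns the ribs together with its paralogs, had 10.3 and 8.20 CPM in I53A replicates 1 and 2, and 9.05 and 6.49 CPM in CTL replicates 1 and 2. The groups overlapped (log2 fold change 0.23 ± 0.32 SE; 95% interval -0.47 to 0.93; edgeR adjusted p = 0.787). Hoxb13 (96194316 to 96197447), a gene of the tail and the prostate, starts 171.4 kb upstream of Hoxb1. It had 0 reads in each of the 4 libraries, and a count of 0 allows up to 0.132 and 0.191 CPM in the I53A libraries and up to 0.179 and 0.199 CPM in the CTL libraries (3 counts, counting error only).

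**Figure D2:**
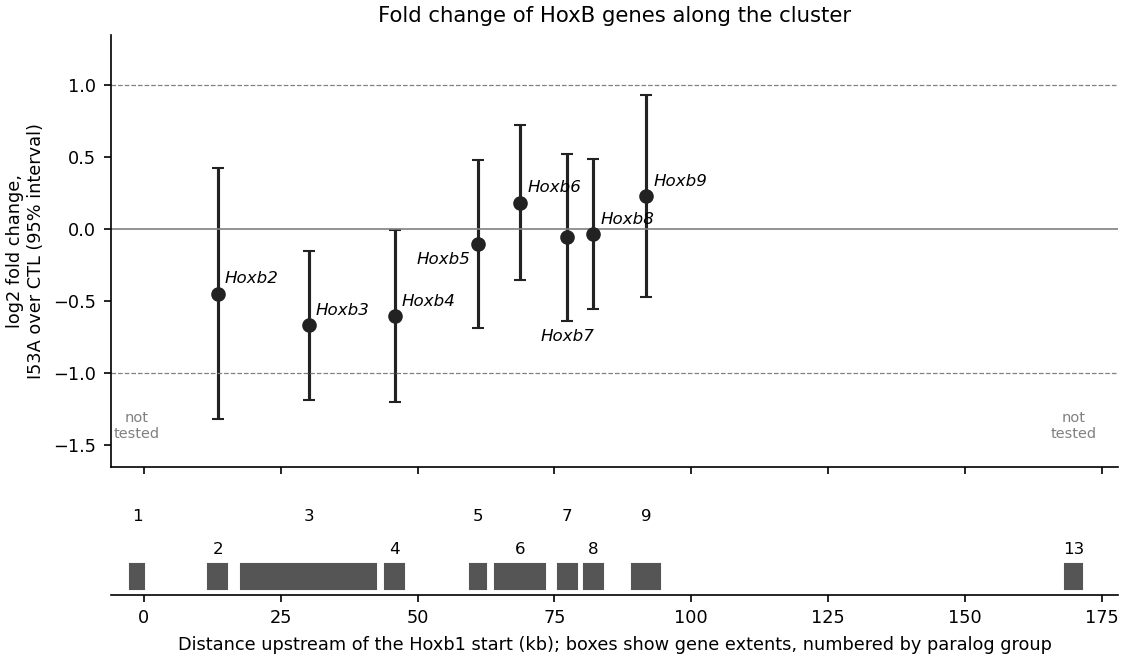
Upper panel: log2 fold change of I53A over CTL (points) with its 95% interval (bars) for the 8 tested HoxB genes, placed by distance upstream of the Hoxb1 start in kb; dashed lines mark a doubling and a halving. Lower panel: the genes' extents to scale. Hoxb2, Hoxb3 and Hoxb4 lie between -0.67 and -0.45 and the genes from Hoxb5 to Hoxb9 between -0.10 and 0.23, and every upper limit is under 1.

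Of the 8 tested genes, 0 were called by edgeR, against 6.71% of all tested genes. At an unadjusted p under 0.05, edgeR gave 2 of 8, both lower, against 5.69% of all genes lower at that level. DESeq2 and limma-voom also called 0, with 1 and 2 genes at an unadjusted p under 0.05. Libraries did not overlap, with I53A lower, for 3 of 8, against 23.5% of all tested genes, and with I53A higher for 0 of 8, against 24.5% of all tested genes. The fold change was below 1 for 6 of 8, against 51.6% of all genes, and the median log2 fold change was -0.08, against -0.01 over all genes. The upper 95% limit was below a doubling for 8 of 8 genes, against 70.9% of all genes. Without CTL replicate 1 that held for 4 of 8 and without I53A replicate 2 for 7 of 8. The interval lay between a halving and a doubling for 5 of 8, those from Hoxb5 to Hoxb9, against 57.3% of all genes.

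The share of each gene in a library's HoxB reads does not depend on the scaling between libraries. Hoxb3 took 29.9% (95% Wilson interval 28.0 to 31.9) and 21.9% (20.3 to 23.5) of the HoxB reads in I53A replicates 1 and 2, against 34.0% (32.2 to 35.8) and 36.3% (34.2 to 38.4) in CTL replicates 1 and 2. The intervals cover counting error only. Hoxb6 took 14.1% and 14.0% in I53A replicates 1 and 2, against 10.5% and 10.3% in CTL replicates 1 and 2, and Hoxb9 took 7.52% and 7.16% in I53A, against 5.54% and 4.86% in CTL. Hoxb7 took 9.0% and 10.8% in I53A replicates 1 and 2, against 8.9% and 8.3% in CTL replicates 1 and 2. Shares within a library are tied, so a lower share of Hoxb3 goes with higher shares of other genes. By level, Hoxb6, Hoxb7 and Hoxb9 overlapped between the groups. Hoxb1 to Hoxb4 together took 39.5% and 33.4% in I53A replicates 1 and 2, against 46.3% and 48.6% in CTL replicates 1 and 2. Most of the reads in each of these sums were Hoxb3 reads. This division of the cluster was chosen after the values were seen, and the difference is given with no test.

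**Figure D3:**
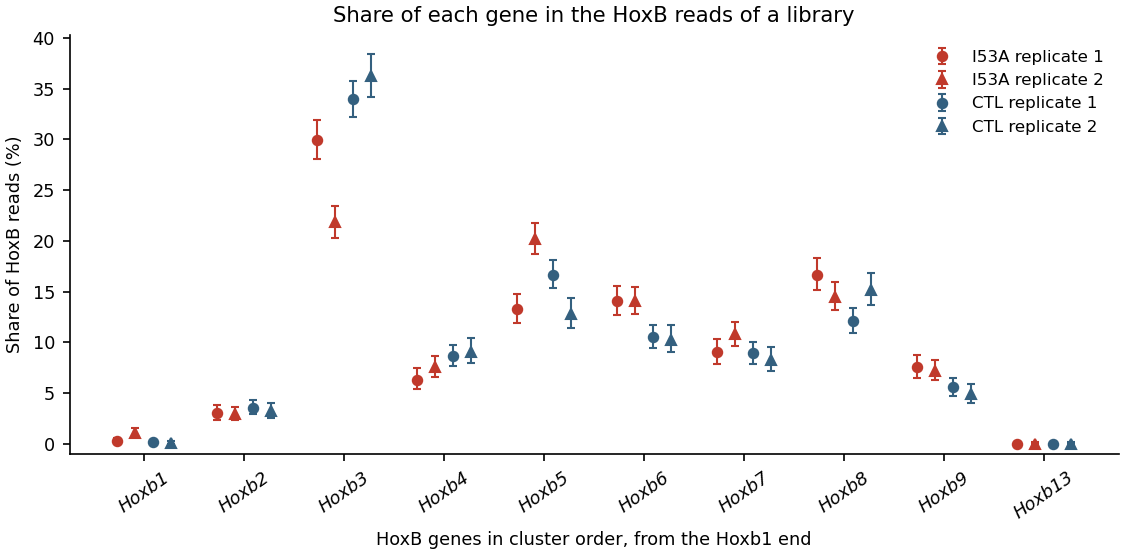
Share of each HoxB gene in the HoxB reads of a library in percent (vertical axis), in cluster order (horizontal axis), with 95% Wilson intervals as bars and a point for each library, I53A left of CTL. The Hoxb3 share is 21.9% to 29.9% in the I53A libraries and 34.0% to 36.3% in the CTL libraries.

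The other clusters were compared by paralog group, the number that genes of common descent share across clusters. HoxA had 1 lower and 0 higher among 8 tested genes, HoxC had 5 higher and 1 lower among 8, and HoxD had 1 higher among 2 (edgeR). Over all tested genes 5.68% were higher and 1.04% were lower. In paralog groups 1 to 4 the 3 tested HoxB genes had log2 fold changes from -0.67 to -0.45. The 5 tested genes of the other clusters in these groups ran from -0.92 to -0.46, and 2 of them were lower: Hoxc4 (log2 fold change -0.88 ± 0.16 SE, edgeR adjusted p = 0.00884), the paralog of Hoxb4, and Hoxa2 (-0.81 ± 0.17 SE, adjusted p = 0.0176), the paralog of Hoxb2. In groups 5 to 8 HoxB ran from -0.10 to 0.19 and the other clusters from -0.55 to 1.28, with 1 of 7 called, higher. In groups 9 to 13 Hoxb9 had a log2 fold change of 0.23. The other clusters hold 14 genes of these groups, and 5 of the 6 tested were higher. Among them were Hoxd9 (5.03 ± 0.73 SE, adjusted p = 0.00139) and Hoxc9 (4.24 ± 0.75 SE, adjusted p = 0.00649), both paralogs of Hoxb9, and Hoxc10 (3.60 ± 0.49 SE, adjusted p = 0.00165). A gene near silence in CTL got past the filter on low counts by its I53A reads alone, so silent genes that stayed silent are not in these counts. Untested genes of groups 9 to 13 went both ways. Hoxa11 had 0 and 0 reads in I53A replicates 1 and 2, against 9 and 3 in CTL replicates 1 and 2. In the same order Hoxd11 had 4 and 0 against 3 and 19, and Hoxa10 had 10 and 6 against 2 and 0. The rest had at most 1 read in a library. Of groups 1 to 4, Hoxb1, Hoxd1, Hoxd3 and Hoxd4 were below the filter, with higher mean levels in I53A. Those were 0.786, 0.0661, 1.03 and 0.964 CPM in I53A, against 0.152, 0, 0.199 and 0.354 CPM in CTL. The Hoxd1 mean rests on 3 reads, all in I53A replicate 2, and the Hoxd4 libraries overlapped between the groups. The cut after group 4 is the one used for the shares, chosen after the values were seen. The differences between clusters were not tested. The calls of Hoxc4, Hoxa2, Hoxd9 and Hoxc9 were lost without CTL replicate 1 (adjusted p = 0.0991, 0.157, 0.0620 and 0.111) and without CTL replicate 2 (adjusted p = 0.161, 0.232, 0.0522 and 0.0541), and that of Hoxc10 was not. Single libraries moved the size of these changes most for Hoxc9, with log2 fold changes of 3.52 without CTL replicate 1, 5.43 without CTL replicate 2 and 3.65 without I53A replicate 2, and for Hoxc10, at 4.21 without CTL replicate 2.

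**Figure D4:**
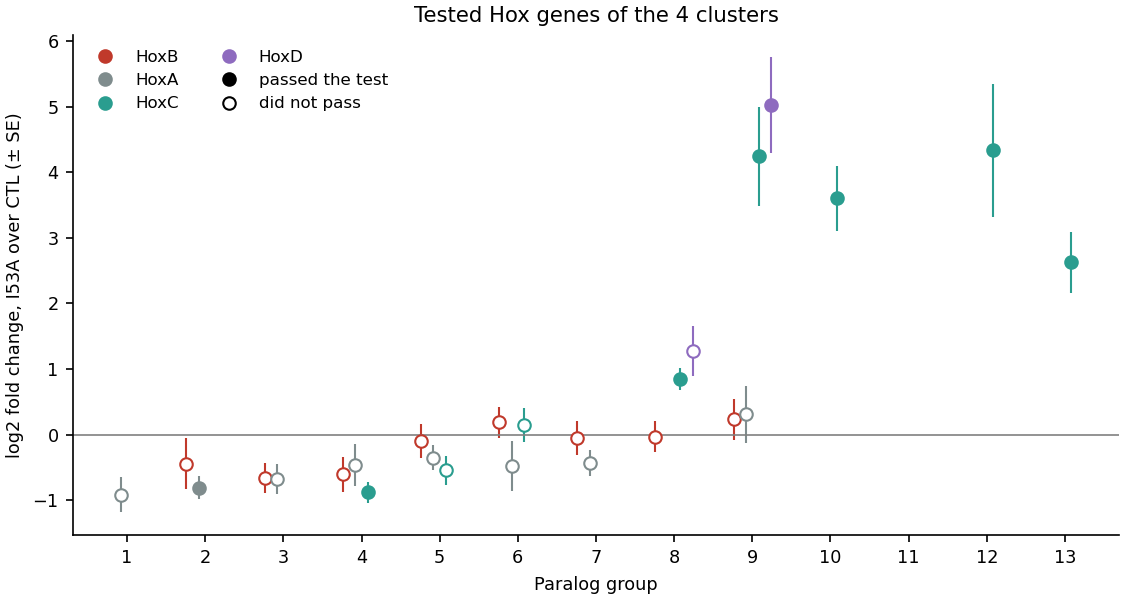
Log2 fold change of I53A over CTL with its SE (vertical axis) for the tested Hox genes of the 4 clusters by paralog group (horizontal axis); filled points passed the test at an adjusted p under 0.05 and open points did not. No HoxB point is filled, Hoxb9 lies at 0.23, and Hoxd9 and Hoxc9 of the same group lie at 5.03 and 4.24.

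Genes around the HoxB genes were read from lists of noncoding and flanking genes. Among transcripts inside the cluster, 4 of 8 listed symbols had a row and 2 were tested, with 0 called by edgeR, DESeq2 or limma-voom and 0 at an unadjusted p under 0.05. Gm53, a noncoding gene between Hoxb13 and Hoxb9, had 3.08 ± 0.238 CPM in I53A and 3.20 ± 1.53 CPM in CTL (SD, n = 2 each), a log2 fold change of -0.09 that did not pass (edgeR adjusted p = 0.956). The rows of the microRNA genes of the cluster, Mir10a and Mir196a-1, with exons of 110 and 102 bases, had at most 4 reads in a library. Of 10 tested protein-coding genes flanking the cluster 1 was higher, against 5.68% of all tested genes. It was Copz2, a subunit of the vesicle coat COPI, with 18.6 ± 3.74 CPM in I53A and 6.06 ± 0.238 CPM in CTL (SD, n = 2 each), a log2 fold change of 1.63 ± 0.28 (SE; edgeR adjusted p = 0.00687). The Copz2 call was lost without CTL replicate 1 or 2 (adjusted p = 0.108 and 0.0848).

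HOX proteins bind DNA with partners of the TALE class of homeodomain factors, such as the MEIS and PKNOX factors. Of 8 tested TALE genes 4 were higher in I53A and 0 were lower (edgeR), against 5.68% higher and 1.04% lower over all tested genes. Meis2 had 156 and 173 CPM in I53A replicates 1 and 2, against 73.8 and 81.2 CPM in CTL replicates 1 and 2 (log2 fold change 1.09 ± 0.15 SE, edgeR adjusted p = 0.00151). Meis3 had 23.4 and 22.8 CPM in I53A replicates 1 and 2, against 8.21 and 8.95 CPM in CTL replicates 1 and 2 (log2 fold change 1.43 ± 0.24 SE, edgeR adjusted p = 0.00517). For both genes the I53A libraries lay well above the CTL libraries. The other 2, named after their values were seen, were Meis1 (log2 fold change 1.28 ± 0.29 SE, edgeR adjusted p = 0.0237) and Pknox2 (2.68 ± 0.63 SE, adjusted p = 0.0291). Without CTL replicate 1 the calls of Meis2, Meis3 and Meis1 were lost (adjusted p = 0.0635, 0.101 and 0.0724), and without CTL replicate 2 those of Meis3, Meis1 and Pknox2 (adjusted p = 0.0709, 0.267 and 0.219). By limma-voom the call of Pknox2 was lost too (adjusted p = 0.0607). The Pknox2 log2 fold change was 5.39 without CTL replicate 1 and 1.86 without CTL replicate 2.

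Regulators known to act upstream of Hox genes held 0 calls among 6 tested, by edgeR, with 1 at an unadjusted p under 0.05. Kmt2a, the MLL1 methyltransferase that keeps Hox genes active, had 626 ± 69.4 CPM in I53A and 606 ± 30.2 CPM in CTL (SD, n = 2 each), a log2 fold change of 0.05 that did not pass (edgeR adjusted p = 0.915). Cdx1, Cdx2 and Cdx4, which activate Hox genes in the embryo's trunk, had 0 reads in every library. The retinoic acid pathway, which induces 3′ Hox genes in embryos, likewise held 0 calls among 11 tested, with 3 at an unadjusted p under 0.05. DESeq2 and limma-voom also called 0 in both lists. Its most abundant gene, the receptor gene Rxra, had 548 ± 21.5 CPM in I53A and 610 ± 2.18 CPM in CTL (SD, n = 2 each), a log2 fold change of -0.16 that did not pass (edgeR adjusted p = 0.624). Among 18 tested genes of PRC1 the 1 call was Ring1.

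The gene outside the Hox clusters whose pattern was most like that of Hoxb3, by Euclidean distance of centred log2(CPM + 1) over the 4 libraries among 13643 genes, was E430018J23Rik (distance 0.0572). 4930579G18Rik (0.0884) and Ddb2 (0.105) were next.

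In these bulk samples, fewer cells of a type and less RNA per cell cannot be told apart. Dermal fibroblasts also express Hox genes. The 10 fibroblast markers, all detected, summed to 2167 and 2294 CPM in I53A libraries and to 1512 and 1619 CPM in CTL libraries. All 10 had a log2 fold change above 0, and 7 were higher at an unadjusted p under 0.05 (edgeR). After adjustment 2 of the 10, Thy1 and Dcn, were higher (edgeR adjusted p = 0.0027 and 0.0446). Without CTL replicate 1 both calls were lost (log2 fold changes 1.355 and 0.772), and without CTL replicate 2 that of Dcn was lost (0.441). Over all tested genes edgeR called 5.68% higher and 1.04% lower. Hair follicle markers summed to 735 and 768 CPM in I53A libraries and to 529 and 531 CPM in CTL libraries, and edgeR called 1 of 10 higher (Lhx2) and 3 lower (among them Tchh and Krt27). DESeq2 called 4 higher and 3 lower, and limma-voom 1 higher and 2 lower. Of 5 tested melanocyte, 5 endothelial and 4 immune markers edgeR called 0, with 1, 0 and 2 at an unadjusted p under 0.05, and DESeq2 called 1, Ptprc, which limma-voom did not. Their most abundant genes were Pmel, Cdh5 and Cd74, at edgeR log2 fold changes of -0.35, 0.33 and -0.0037, and did not pass. Melanocyte markers summed to 27.1 and 30.3 CPM in I53A and to 20.6 and 27.8 CPM in CTL, endothelial markers to 23.5 and 30.9 CPM in I53A and to 12.6 and 32.7 CPM in CTL, and immune markers to 164 and 365 CPM in I53A and to 163 and 320 CPM in CTL. Skeletal muscle markers summed to 1.08 and 2.82 CPM in I53A and to 5.10 and 7.44 CPM in CTL, and of 3 tested edgeR and limma-voom called 1 lower, Myh4, and DESeq2 called Myh4 and Tnnt3 lower. The part of these cells in the HoxB values was not tested.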

How the data were processed

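Per the labels' protocols, 10 ng of total RNA from sorted cells was turned into cDNA with the Ovation kit (RNA-seq System V2), and libraries from 100 ng of cDNA were read as single reads of 100 nucleotides. The files deposited by the authors hold 1 unnormalized read count for each gene symbol and library. HTSeq 0.6.1, DESeq2 1.6.3, TopHat2 2.0.13, Cufflinks 2.2.1 and the build mm10 are named, with no role, per the submitters' processing notes. For the annotation and strand setting, the sources used here give nothing.

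Groups and replicate numbers came from the titles (2 I53A, 2 CTL). The members and gene lists were chosen with earlier results of these data known. Genes were kept by filterByExpr (minimum count 10, minimum total 15), which left 14550, 8 of the 10 HoxB genes among them, and scaled by TMM. The groups were compared over all genes with edgeR 4.0.16 (R 4.3.3; glmQLFit and glmQLFTest, two-sided, no block), with Benjamini-Hochberg adjustment and a threshold of 0.05. CPM divides each count by its library's TMM-scaled size, and values per kb are divided by the union of exons in GENCODE M21 (GRCm38). The SE comes from the coefficient and its F statistic, and 95% intervals are per gene and not adjusted. Reads carry no molecular identifiers, so intervals on counts and floors of 3 counts cover counting error only. The fit was checked on simulated counts. Replicates differed by more than sampling noise (chi-square per degree of freedom 41.8 between I53A and 13.1 between CTL libraries) and were counted singly. Promoter windows came from RefSeq.

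All HoxB genes are named. Of the other lists, up to 2 called members of smallest p in each direction are named, or the most abundant member where none was called. The lists are HoxA, HoxC and HoxD genes, noncoding and flanking genes of the cluster, TALE cofactors, upstream regulators, the retinoic acid pathway, PRC1, and markers of keratinocytes, hair follicle, fibroblasts, melanocytes, endothelium, immune cells and skeletal muscle. Alternatives were scaling by RLE or upper quartiles, limma-voom (limma 3.58.1), DESeq2 1.42.0, testing without a filter or at 1 CPM or more in 2 libraries, loess offsets (span 0.5) for GC content and transcript length (98.0% of tested genes had both), the replicate block, both together, and each library left out.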

Additional observations from a re-analysis of the deposited data

How the results depend on the processing

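The count of HoxB genes called higher was 0 in each of the 13 alternatives. The count called lower was 0 in 9 of them and 1, Hoxb3, in 4: with GC content and length offsets, with the replicate number as a block (log2 fold change -0.69, adjusted p = 0.0361), with both (log2 fold change -0.91, adjusted p = 0.00687), and without I53A replicate 1, so that leaving out libraries gave 0 to 1. The fit without I53A replicate 1 holds 1 I53A library and takes its spread from the CTL libraries alone. The cause of these differences between settings was not tested. Same-numbered libraries did not deviate together (correlation of deviations from the group means 0.0453), so the numbers were not taken as pairs. The median log2 fold change of the 8 genes was -0.25 with the offsets and -0.24 with offsets and block, against medians of all genes of -0.14 and -0.15. It ran from 0.056 to -0.32 without single libraries. The number of all genes called was 1521 with the offsets and 1746 with offsets and block, and 297 to 1520 without single libraries. Log2 fold changes near 0 turned direction for Hoxb5 without CTL replicate 1 (0.27) or I53A replicate 1 (0.06), for Hoxb7 without CTL replicate 1 (0.16) and for Hoxb8 without I53A replicate 2 (0.19), and over the 4 libraries left out in turn they ran from -0.40 to 0.27 for Hoxb5, from -0.23 to 0.16 for Hoxb7 and from -0.26 to 0.19 for Hoxb8. No other setting turned the direction of a tested HoxB gene. With 2 libraries a group an exact permutation test cannot go below p = 0.333.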
